A study of Mus musculus with 15 samples.

Results

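The genes of granulocyte-macrophage colony-stimulating factor (GM-CSF), macrophage colony-stimulating factor (M-CSF) and their receptors were followed in inflamed mouse lung. The set holds 8 of the 55421 genes in the count table. Its ligands are Csf2 (GM-CSF), Csf1 (M-CSF), Il34 (interleukin 34) and Csf3 (granulocyte colony-stimulating factor, G-CSF), and its receptor chains are Csf2ra, Csf2rb, Csf2rb2 and Csf1r. The genes were picked by name from a list chosen on earlier results of these same libraries, in which Csf2 was lower in the short-term group than with house dust mite alone. That contrast of Csf2 is therefore given as a description without a p-value, and its place in a count of called genes supports nothing. The other members' contrasts with house dust mite alone use the same libraries, so their p-values are not free of that choice either. Of the 8 genes, 7 had enough counts to be tested, and Csf3 did not.

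GM-CSF, made by alveolar epithelial cells and lymphocytes, is needed for alveolar macrophages to mature and clear surfactant, and it activates dendritic cells, eosinophils and neutrophils in allergic airways. Its receptor pairs the specific alpha chain Csf2ra with the beta chain Csf2rb, which is shared with the receptors of interleukins 3 and 5 and signals through JAK2 and STAT5. M-CSF and interleukin 34 bind the same receptor tyrosine kinase, Csf1r, which maintains monocytes and macrophages.

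Total RNA from lung lobes of 15 female wild-type C57BL/6 mice was sequenced, 5 mice in each of 3 groups. In the short-term group, mice challenged with house dust mite (HDM) extract received adipose tissue-derived mesenchymal stem cells (MSCs, culture-expanded stromal cells) through the nose on day 13. In the long-term group the same cells were given on day 6. The HDM group had the extract without MSCs. In all 3 groups 10 µg of extract per dose was given intranasally for 5 days in each of 2 weeks, and the mice were killed on day 15, so that 2 days lay between MSCs and sampling in the short-term group and 9 days in the long-term group. The mice's age and the donor of the MSCs are not given in the labels, and saline-treated mice were not analysed here, so no value is relative to healthy lung. The labels do not say whether mice of a group shared a cage or a day, and p-values measure the spread between these samples.

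Total counts ranged from 17182599 to 32119067 in the short-term group, from 31762964 to 41762167 in the long-term group and from 29635897 to 44201637 in the HDM group. Short-term replicate 3 had the lowest total and stood apart. Its summed level of 10 thymocyte genes was 4253 counts per 1000000 counts (CPM), against 76.3 to 98.2 CPM in the other 4 short-term libraries, and its summed level of 10 genes of type 2 alveolar epithelium was 9772 CPM, against 16790 to 19790 CPM. HDM replicates 1 and 2 lay apart from the other libraries on the second principal component, at 40.9 and 54.5. The type 2 epithelial list, which checks the tissue, was detected in every group with no gene at 0. Calls of named genes that were lost without HDM replicates 1 and 2, or without short-term replicate 3, are given with that loss.

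**Figure D1:**
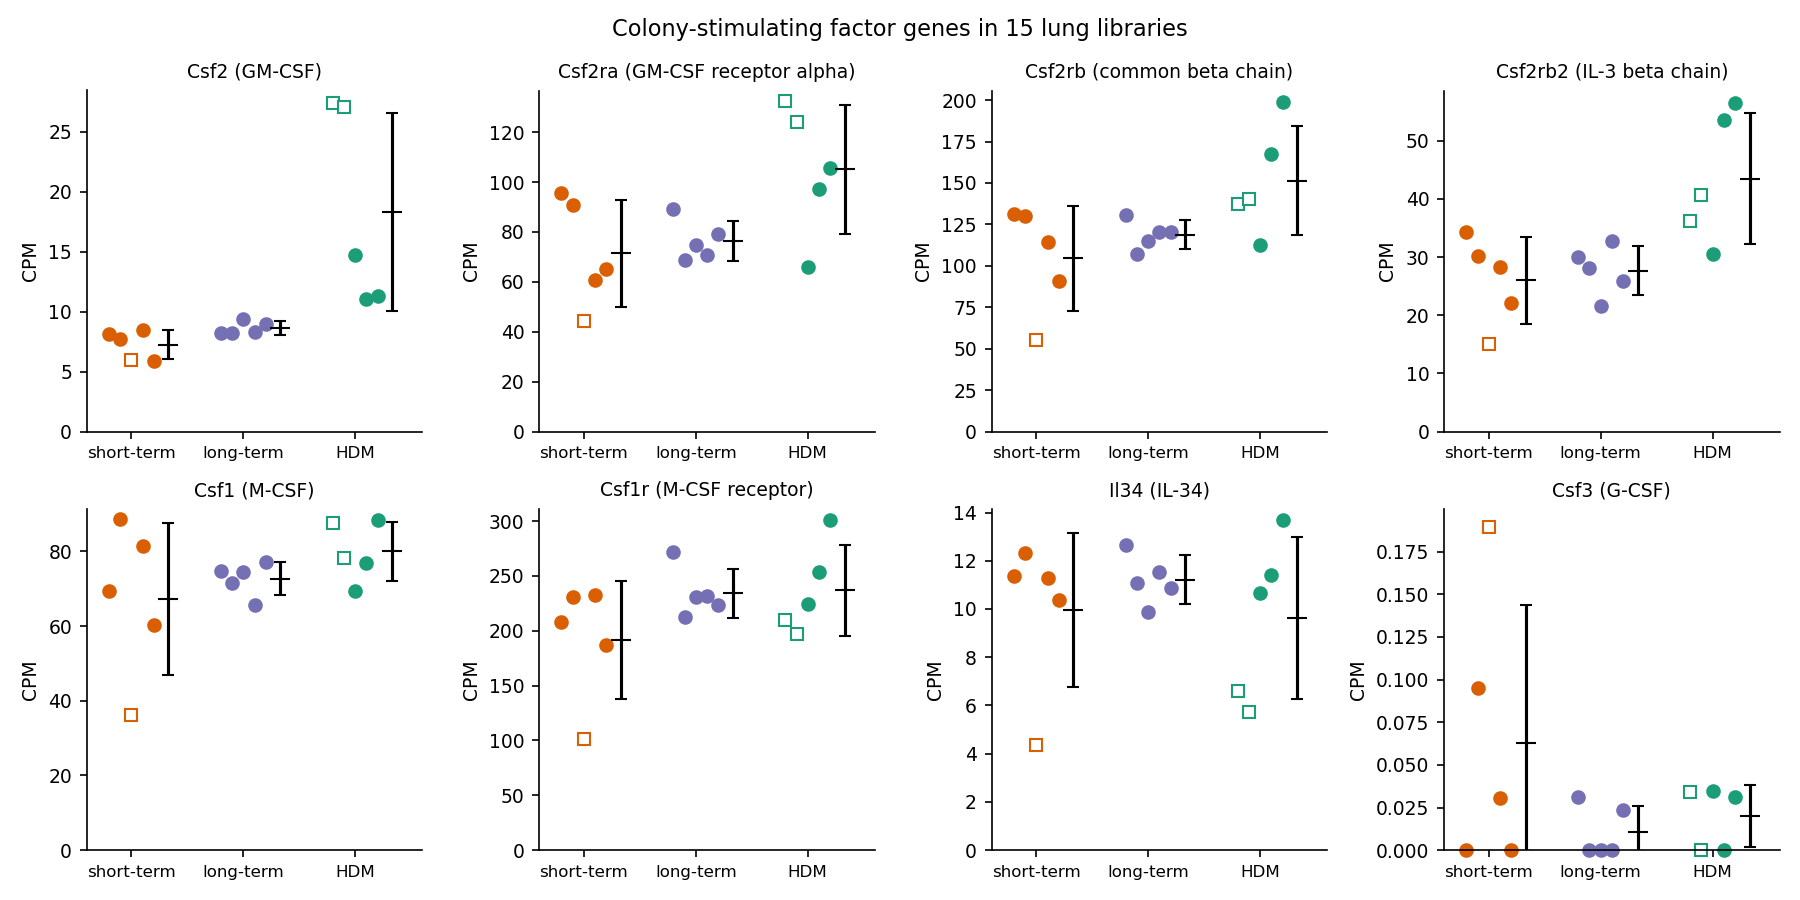
Level of each of the 8 genes in CPM (linear axes from 0) in the short-term, long-term and HDM groups. Points are libraries, open squares are short-term replicate 3 and HDM replicates 1 and 2, and bars are the mean and SD of 5 libraries; every Csf2 value of the MSC groups lies below every HDM value, and short-term replicate 3 is the lowest short-term library for Csf2ra, Csf2rb, Csf2rb2, Csf1, Csf1r and Il34.

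Csf2 (ENSMUSG00000018916, chromosome 11, 54247271 to 54249667, minus strand; positions of all genes are on GRCm38 from GENCODE M21), the GM-CSF gene, was low in every lung of both MSC groups and varied most in the HDM lungs. It was at 8.10, 7.73, 6.00, 8.51 and 5.91 CPM in short-term replicates 1 to 5 and at 8.21, 8.23, 9.42, 8.34 and 9.00 CPM in long-term replicates 1 to 5. In HDM replicates 1 to 5 it was at 27.4, 27.0, 14.7, 11.0 and 11.3 CPM. HDM replicates 1 and 2 were thus far above the other 3 HDM libraries, and even the lowest HDM library was above all 10 libraries with MSCs. Of all tested genes, 6.25% had no overlap between the short-term and HDM libraries and 5.3% had none between the long-term and HDM libraries. Counts behind these values ran from 95 to 386 in the MSC groups and from 334 to 1110 in the HDM group.

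Csf2 thus averaged 7.25 ± 1.21 CPM in short-term and 18.3 ± 8.27 CPM in HDM lungs (SD, n = 5 each), a fitted log2 fold change of -1.33 (SE 0.24). In the long-term group the mean was 8.64 ± 0.54 CPM (n = 5), and the log2 fold change against the same HDM libraries was -1.08 (SE 0.24). This long-term difference missed the threshold of 0.05 in edgeR's quasi-likelihood test (adjusted p = 0.0769, Benjamini-Hochberg (BH) over 19562 genes). Without short-term replicate 3, which belongs to neither of the groups compared but enters the shared estimate of the spread, it was -1.08 with an adjusted p of 0.0336. The HDM libraries of this contrast are the same ones in which Csf2 was known to be higher when the list was chosen. Neither adjusted p is therefore free of that choice, and neither supports a difference. Without HDM replicates 1 and 2 together the short-term change was -0.75 and the long-term change was -0.51, so the size of both changes depended on these 2 libraries. In whole lung, fewer cells that make a transcript and less transcript per cell cannot be told apart.

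The Csf2 transcript is known to be short-lived, through AU-rich elements in its 3′ untranslated region that recruit decay factors. The ligand transcripts were searched on their own strand for the pentamer ATTTA and the nonamer ATTTATTTA, which overlap where pentamers share an A, in the longest 3′ untranslated region of each gene in GENCODE M21. Csf2 held 9 pentamers in 317 bases, and 5 nonamers. Of 16326 mouse genes with at least as long a 3′ untranslated region, 46.8% had a pentamer in their last 317 bases, 0.0184% had at least 9 of them, and 1.65% had a nonamer. Csf3 held 6 pentamers in 669 bases, where 1.49% of 12757 genes had as many over the same length. Csf1 held 4 in 2111 bases and Il34 held 1 in 605 bases, numbers that 51.9% of 5007 genes and 64.8% of 13274 genes matched over the same lengths. The windows richest in pentamers are shown for the 2 ligands that held the most, with the pentamers in capitals. The Csf2 window is chr11:54247329-54247358 on the minus strand and the Csf3 window chr11:98702984-98703013 on the plus strand (GRCm38).
Csf2: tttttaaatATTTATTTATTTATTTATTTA
Csf3: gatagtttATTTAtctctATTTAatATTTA
A match in these letters describes the sequence and measures no decay.

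Csf3 (ENSMUSG00000038067, chromosome 11, 98701263 to 98703629, plus strand), the growth factor of neutrophils, was close to the detection limit in every group. It had 0, 3, 3, 1 and 0 counts in short-term replicates 1 to 5, at most 1 count in any long-term library and at most 1 count in any HDM library. No fold change was drawn from these counts.

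Csf1 (ENSMUSG00000014599, chromosome 3, 107741048 to 107760469, minus strand), the M-CSF gene, differed little between groups. It was at 69.3, 88.7, 36.3, 81.5 and 60.3 CPM in short-term replicates 1 to 5, at 74.7, 71.4, 74.5, 65.7 and 77.1 CPM in long-term replicates 1 to 5, and at 87.5, 78.1, 69.4, 76.8 and 88.4 CPM in HDM replicates 1 to 5. All groups overlapped, and the value of 36.3 CPM in short-term replicate 3 was the lowest. The log2 fold change was -0.25 (SE 0.17, adjusted p = 0.393) for short-term against HDM and -0.14 (SE 0.17, adjusted p = 0.767) for long-term against HDM by edgeR. Without short-term replicate 3, the short-term value was -0.08.

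Il34 (ENSMUSG00000031750, chromosome 8, 110741829 to 110805924, minus strand), the other ligand of Csf1r, split the HDM group the opposite way from Csf2. It was at 11.4, 12.3, 4.36, 11.3 and 10.4 CPM in short-term replicates 1 to 5 and at 12.7, 11.1, 9.88, 11.5 and 10.9 CPM in long-term replicates 1 to 5. In HDM replicates 1 to 5 it was at 6.58, 5.75, 10.7, 11.4 and 13.7 CPM. HDM replicates 1 and 2, which had the highest Csf2, had the lowest Il34 of their group, and short-term replicate 3 had the lowest of all 15 libraries. The groups overlapped, with log2 fold changes of 0.06 (SE 0.25, adjusted p = 0.916) for short-term against HDM and 0.22 (SE 0.25, adjusted p = 0.748) for long-term against HDM by edgeR. Without HDM replicates 1 and 2 both turned negative, at -0.24 and -0.087.

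In HDM replicates 1 and 2 other cell markers also stood at the edge of their group. The summed level of 10 type 2 epithelial genes was 15910 and 17030 CPM there, against 21270 to 22740 CPM in the other 3 HDM libraries. The 9 genes of type 2 lymphocytes and innate lymphoid cells summed to 237.5 and 264.5 CPM, against 176.0 to 225.5 CPM in the other 3 HDM libraries. The part of these differences in the Csf2 and Il34 values was not tested.

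**Figure D2:**
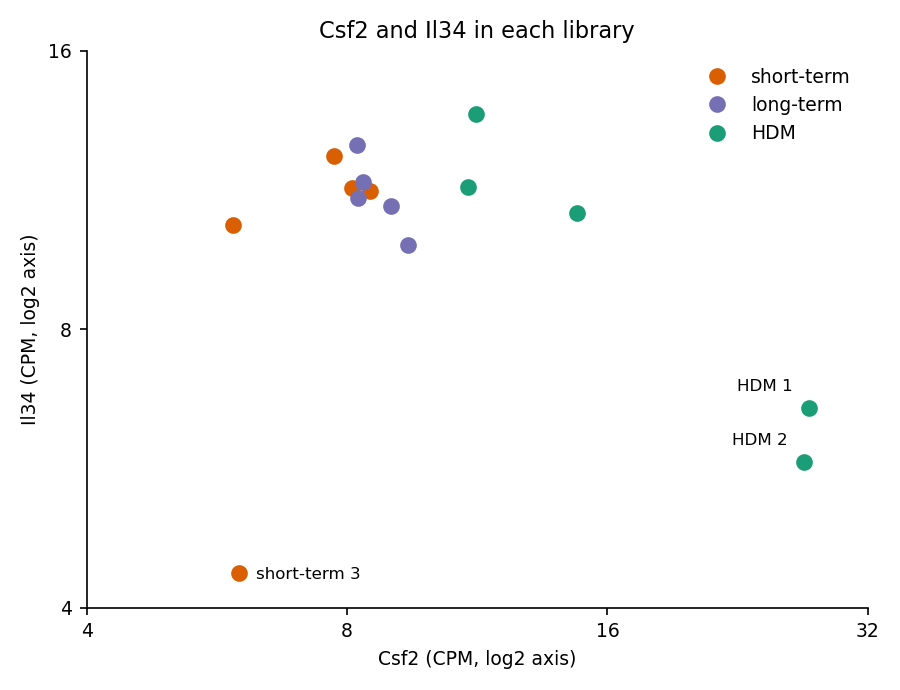
Csf2 against Il34 in CPM, both on log2 axes, for each library of the short-term, long-term and HDM groups. HDM replicates 1 and 2 lie at high Csf2 (27.4 and 27.0 CPM) and low Il34 (6.58 and 5.75 CPM), short-term replicate 3 lies at low values of both, and the other 12 libraries have between 9.88 and 13.7 CPM of Il34.

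Among the receptor chains, Csf2ra (ENSMUSG00000059326, chromosome 19, 61223957 to 61228429, minus strand), which gives the GM-CSF receptor its specificity, had lower means with MSCs that did not pass the test. It was at 95.6, 90.8, 44.5, 60.7 and 65.3 CPM in short-term replicates 1 to 5, at 89.1, 68.6, 74.7, 70.6 and 79.3 CPM in long-term replicates 1 to 5, and at 132, 124, 65.9, 97.1 and 106 CPM in HDM replicates 1 to 5. HDM replicate 3 lay below all 5 long-term libraries and within the short-term range, and the other 4 HDM libraries lay above every MSC library. The log2 fold change was -0.56 (SE 0.20, adjusted p = 0.103) for short-term against HDM and -0.46 (SE 0.20, adjusted p = 0.317) for long-term against HDM by edgeR. Csf2ra was thus not called for short-term against HDM with all 15 libraries. It passed when HDM replicate 3, the HDM library within the short-term range, was left out (-0.68, edgeR adjusted p = 0.0422). Without short-term replicate 3 the value was -0.41 (adjusted p = 0.163). Without HDM replicates 1 and 2 it was -0.31.

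Csf2rb (ENSMUSG00000071713, chromosome 15, 78325752 to 78353847, plus strand) encodes the shared beta chain that carries the signal of GM-CSF, interleukin 3 and interleukin 5. It was at 131, 130, 55.3, 115 and 91.1 CPM in short-term replicates 1 to 5, at 131, 107, 115, 121 and 121 CPM in long-term replicates 1 to 5, and at 138, 141, 113, 168 and 199 CPM in HDM replicates 1 to 5. HDM replicate 3 again lay within the range of the MSC libraries, and the other 4 lay above it. The log2 fold change was -0.53 (SE 0.19, adjusted p = 0.109) for short-term against HDM and -0.35 (SE 0.19, adjusted p = 0.44) for long-term against HDM by edgeR.

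Csf2rb2 (ENSMUSG00000071714, chromosome 15, 78282507 to 78305721, minus strand), the neighbouring mouse gene of a beta chain that serves interleukin 3 alone, came closest to the threshold among the receptor chains. It was at 34.3, 30.2, 15.0, 28.3 and 22.2 CPM in short-term replicates 1 to 5, at 29.9, 28.1, 21.6, 32.7 and 25.9 CPM in long-term replicates 1 to 5, and at 36.2, 40.6, 30.5, 53.6 and 56.6 CPM in HDM replicates 1 to 5. Again HDM replicate 3 was the one HDM library inside the range of the MSC groups. The log2 fold change was -0.74 (SE 0.21, adjusted p = 0.0505) for short-term against HDM and -0.65 (SE 0.20, adjusted p = 0.17) for long-term against HDM by edgeR. The short-term value kept its size without HDM replicates 1 and 2, at -0.83 (adjusted p = 0.076), and without these and short-term replicate 3, at -0.71 (adjusted p = 0.0505). Over 23 alternatives it ran from -0.86 to -0.58 with adjusted p from 0.00956 to 0.149. It passed with DESeq2, with limma voom, with RLE scaling, and without HDM replicate 3 or short-term replicate 1. The members were chosen with short-term against HDM known, so none of these adjusted p supports a difference.

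The 2 beta chain genes are near copies, so reads of one can be placed on the other, and their levels are uncertain to that extent. Their coding sequences of 2691 and 2637 bases were identical at 95.2% of 2631 aligned bases, with a longest identical run of 242 bases. Of all 50-base windows of the Csf2rb transcript, 18.4% occurred unchanged in Csf2rb2, and of 100-base windows 7.0% did. The 60 coding bases with the most differences (13) and a stretch with the median number (2) are shown to give the scale of what a read can tell apart, with differing bases in capitals. On GRCm38 the first pair lies at chr15:78338893-78338952 (Csf2rb) and chr15:78294379-78294438 (Csf2rb2), the second at chr15:78335218-78335277 and chr15:78298159-78298218.
Csf2rb, most differences: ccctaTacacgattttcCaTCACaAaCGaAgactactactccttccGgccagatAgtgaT
Csf2rb2, most differences: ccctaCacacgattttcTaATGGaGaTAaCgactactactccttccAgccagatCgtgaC
Csf2rb, median: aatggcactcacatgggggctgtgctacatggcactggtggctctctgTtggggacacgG
Csf2rb2, median: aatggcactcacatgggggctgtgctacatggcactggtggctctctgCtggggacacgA
Per kilobase of exon, the log2 ratio of the Csf2rb2 level to the Csf2rb level was -1.38 ± 0.09 in the short-term group, -1.50 ± 0.22 in the long-term group and -1.19 ± 0.11 in the HDM group (SD, n = 5 each). The short-term range, -1.49 to -1.26, and the HDM range, -1.31 to -1.02, overlapped.

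Csf1r (ENSMUSG00000024621), the receptor of M-CSF and interleukin 34 and a marker of monocytes and macrophages, had the highest level per kilobase of exon. It was at 208, 231, 101, 232 and 187 CPM in short-term replicates 1 to 5, at 271, 213, 231, 232 and 223 CPM in long-term replicates 1 to 5, and at 210, 197, 224, 254 and 301 CPM in HDM replicates 1 to 5. The groups overlapped, and short-term replicate 3 had less than every other library. The log2 fold change was -0.30 (SE 0.18, adjusted p = 0.321) for short-term against HDM and -0.018 (SE 0.18, adjusted p = 0.978) for long-term against HDM by edgeR. Without short-term replicate 3 the first was -0.13 (adjusted p = 0.512). Csf1r overlaps Hmgxb3 on the other strand, whose means were 54.8 CPM in the short-term, 55.5 CPM in the long-term and 53.8 CPM in the HDM group.

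**Figure D3:**
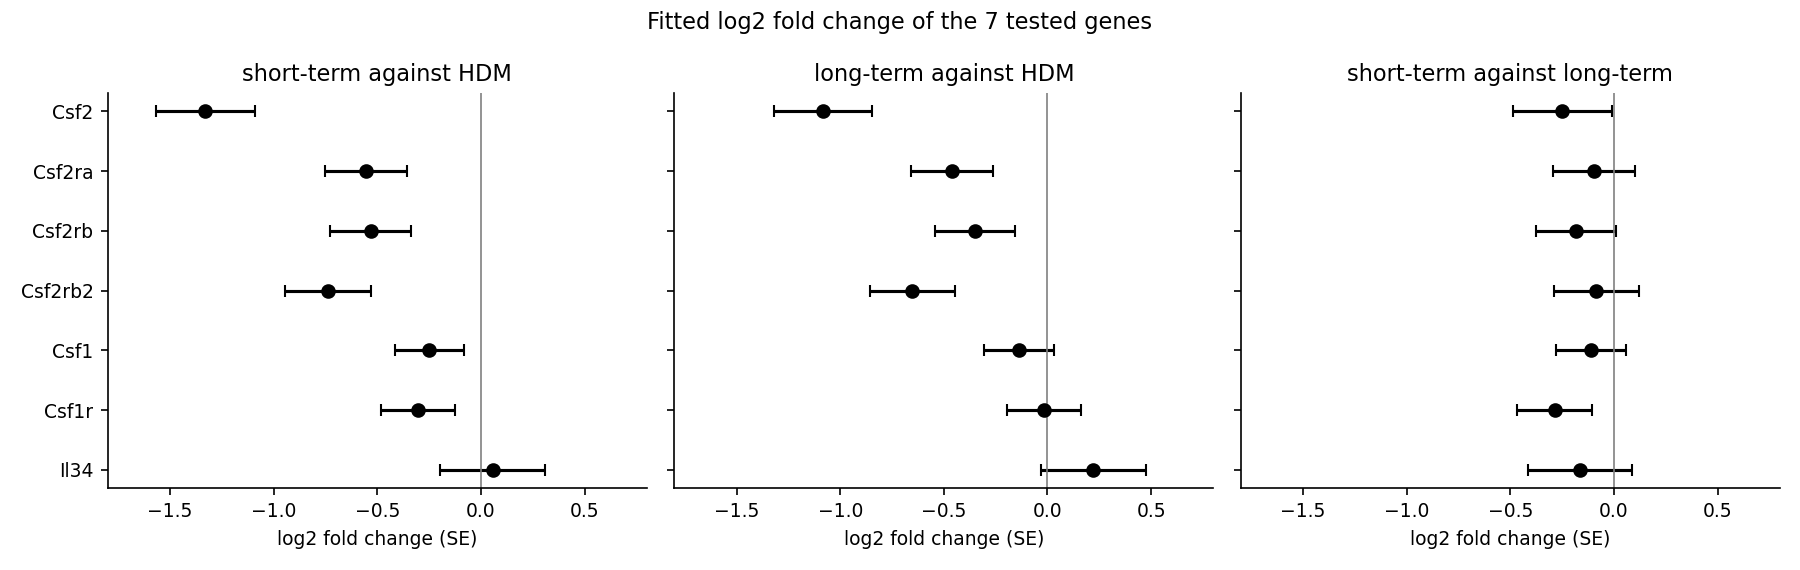
Fitted log2 fold change (x axis) of the 7 tested genes, in 1 panel each for the short-term group against HDM, the long-term group against HDM, and short-term against long-term; points are edgeR estimates and bars are 1 SE. Csf2 lies farthest from 0 in the first 2 panels, at -1.33 and -1.08, followed by Csf2rb2 at -0.74 and -0.65.

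Of the 7 tested members, 6 had a log2 fold change below 0 for short-term against HDM and 1, Csf2, was called lower at an adjusted p under 0.05, beside 4.79% of all 19562 genes called in either direction by edgeR. The members were chosen with this contrast known, and nothing is read from that count. For long-term against HDM, 6 of 7 were below 0 and 0 were called, beside 0.0971% of all genes. For short-term against long-term, 7 of 7 were below 0 and 0 were called, beside 0% of all genes. For this last comparison edgeR gave 1514 genes with an unadjusted p under 0.05, and 2 genes were called with DESeq2 and 1 with limma voom. The members' median log2 fold change was -0.53, -0.35 and -0.16 in these 3 comparisons, and that of all genes was 0.027, 0.012 and 0.0071. Without short-term replicate 3 the 3 medians were -0.36, -0.35 and 0.03, and 3 of 7 members were below 0 for short-term against long-term.

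The 2 MSC groups did not differ detectably in any member. The log2 fold changes of short-term against long-term lay between -0.29 for Csf1r (SE 0.18) and -0.09 for Csf2rb2 (SE 0.21), with adjusted p from 0.63 to 0.878 by edgeR. For Csf2 the value was -0.25 (SE 0.24, adjusted p = 0.7). Both MSC groups were compared with the same 5 HDM libraries, so their differences from HDM share those libraries' deviations.

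**Figure D4:**
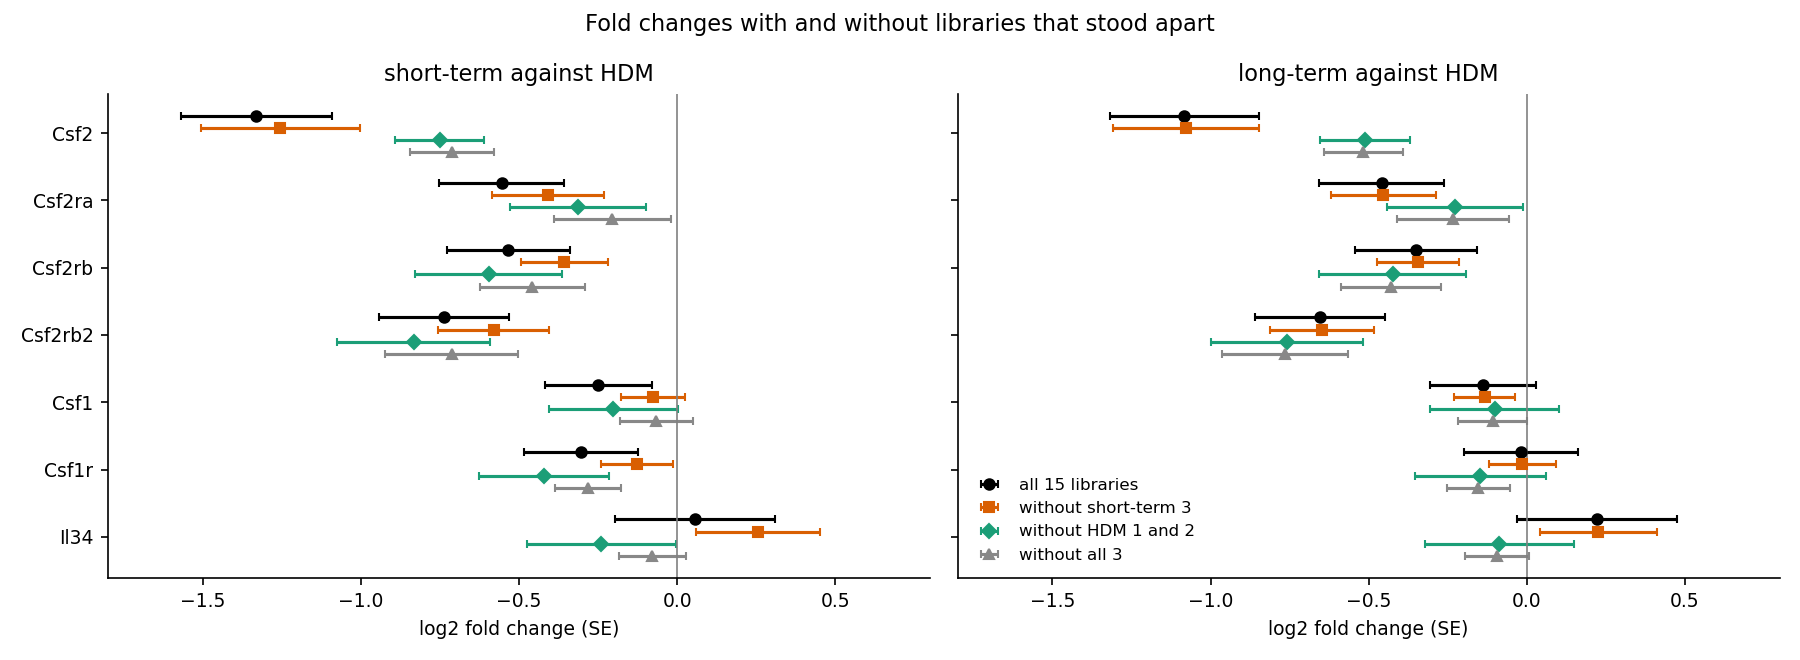
Fitted log2 fold change with 1 SE (x axis) of the 7 tested genes for the short-term (left panel) and long-term (right panel) groups against HDM, with all 15 libraries and without short-term replicate 3, HDM replicates 1 and 2, or all 3. Csf2 moves to -0.75 and -0.51 without HDM replicates 1 and 2, Csf2rb2 stays between -0.83 and -0.58 in the left panel, and Il34 crosses 0.

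Levels were compared between genes per kilobase of exon. In the HDM group Csf1r averaged 41.1 ± 7.19 CPM per kb and Csf2ra 36.6 ± 9.05, which did not differ beyond their spread (SD, n = 5 each). Next came Csf2 at 22.9 ± 10.3 and Csf2rb at 20.8 ± 4.50 CPM per kb, which also did not differ beyond it, then Csf1 at 15.2 ± 1.51, Csf2rb2 at 9.18 ± 2.37 and Il34 at 4.91 ± 1.71. In both MSC groups the mean of Csf2 stood below those of Csf2rb and Csf1. In the short-term group the SDs around these means overlapped. In short-term replicate 3 Csf2 was at 7.50 CPM per kb, above Csf1 at 6.87 and close to Csf2rb at 7.60. The short-term levels were 33.2 ± 9.33 CPM per kb for Csf1r, 24.9 ± 7.47 for Csf2ra, 14.4 ± 4.38 for Csf2rb, 12.7 ± 3.88 for Csf1, 9.06 ± 1.52 for Csf2, 5.48 ± 1.59 for Csf2rb2 and 5.08 ± 1.63 for Il34. The long-term levels of Csf2rb, Csf1 and Csf2 were 16.3 ± 1.19, 13.8 ± 0.83 and 10.8 ± 0.68 CPM per kb, each step larger than the SDs. The order of the GM-CSF and M-CSF transcripts differed between lungs with HDM alone. In HDM replicates 1, 2 and 3 Csf2 was at 34.2, 33.8 and 18.4 CPM per kb, above Csf1 at 16.6, 14.8 and 13.1. In HDM replicates 4 and 5 Csf2 was at 13.8 and 14.1 CPM per kb, below Csf1 at 14.5 and 16.7.

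The overlapping antisense gene of Csf2, Gm12223, had 0 to 3 counts in each library, and the antisense genes of Il34, Gm15894 and Gm15895, had at most 36. The Gm12223 counts are small beside the 95 or more counts of Csf2. Those of Gm15895 are not negligible beside Il34. In HDM replicates 1 and 2 Gm15895 had 32 and 33 counts, beside 192 and 236 of Il34. In short-term replicate 3 it had 12, beside 69 of Il34.

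Genes that accompany these receptors were taken from lists chosen with earlier results of the series known. Of 19 tested genes of receptor signalling, 3 were called lower in short-term than in HDM lungs and 0 higher, beside 4.79% of all genes called in either direction, with a median log2 fold change of -0.14 against 0.027 for all genes. Spi1, the myeloid transcription factor PU.1 that GM-CSF raises in alveolar macrophages and that activates Csf1r, averaged 49.0 ± 12.4 CPM in short-term and 71.4 ± 5.40 CPM in HDM lungs (log2 fold change -0.54, SE 0.15, edgeR adjusted p = 0.0487). Grb2, an adaptor that links receptors to RAS, averaged 71.4 ± 7.46 CPM in short-term and 90.1 ± 7.30 CPM in HDM lungs (log2 fold change -0.34, SE 0.08, edgeR adjusted p = 0.0304). Pim1, a kinase gene induced by STAT5, averaged 68.5 ± 13.9 CPM in the short-term and 99.3 ± 18.3 CPM in the HDM group (log2 fold change -0.53, SE 0.15, edgeR adjusted p = 0.0467). With short-term replicate 5 left out none of the 3 passed (adjusted p of 0.0916 for Grb2, 0.116 for Pim1 and 0.116 for Spi1), 0 of 19 passed without HDM replicates 1 and 2, and 2 of 19 (Grb2 and Spi1) passed without short-term replicate 3. Without all 3 of these libraries 5 of 19 passed. In the long-term group 0 of 19 passed against HDM, the smallest p-values being those of Grb2 (log2 fold change -0.29, adjusted p = 0.129) and Spi1 (-0.36, adjusted p = 0.293).

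Of the relatives that share the beta chain and the G-CSF receptor, 4 of 5 were tested and 0 passed in any comparison. Il5ra, the alpha chain for interleukin 5 on eosinophils and B cells, averaged 8.01 ± 1.05 CPM in the short-term and 11.1 ± 2.63 CPM in the HDM group (log2 fold change -0.47, edgeR adjusted p = 0.0999), and the long-term value was -0.48 (adjusted p = 0.204). Il3ra, the alpha chain for interleukin 3, had -0.31 (adjusted p = 0.321) in the short-term and -0.15 (adjusted p = 0.765) in the long-term group. Interleukin 3 itself was at 0 counts in all long-term and HDM libraries and reached 0.0632 CPM in 1 short-term library. Of 2 other proteins reported to bind interleukin 34, neither passed: Ptprz1 had a log2 fold change of 0.48 (adjusted p = 0.176) and Sdc1 one of -0.31 (adjusted p = 0.322) for short-term against HDM.

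Of 7 tested cytokines that can induce GM-CSF, 0 passed in any comparison by edgeR. DESeq2 called 1 of them, Il1a, lower for short-term against HDM, beside 2136 of all 19562 genes called. For short-term against HDM, Il1a, an epithelial and myeloid alarm cytokine, had a log2 fold change of -0.52 (SE 0.16, edgeR adjusted p = 0.0648) and Tslp, an epithelial cytokine of type 2 inflammation, had 0.50 (SE 0.19, adjusted p = 0.125). For long-term against HDM the smallest p-values were those of Tslp, at 0.39 (adjusted p = 0.368), and of Il33, an epithelial alarmin, at -0.28 (adjusted p = 0.574).

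Of 16 genes of alveolar macrophages, cells that depend on GM-CSF, 1 was called lower for short-term against HDM, a share close to the 4.79% of all genes called. It was Atp6v0d2, a subunit of the lysosomal proton pump, at 148 ± 39.0 CPM in the short-term and 277 ± 92.8 CPM in the HDM group (log2 fold change -0.90, SE 0.23, edgeR adjusted p = 0.0381), and it was not called without short-term replicate 3 (adjusted p = 0.0645) or without HDM replicates 1 and 2 (adjusted p = 0.141). The list's summed level ran from 3344 to 7039 CPM in the short-term, from 4989 to 7264 CPM in the long-term and from 4456 to 7338 CPM in the HDM group. These ranges overlapped almost entirely. Most of each sum was Chil3, at 3853 ± 1151 CPM in the short-term, 4317 ± 776 CPM in the long-term and 4317 ± 1102 CPM in the HDM group. The overlap thus mainly describes that gene. Over the list, 11 of 16 genes were below 0 for short-term against HDM. The median log2 fold change was -0.097, and 0.034 without short-term replicate 3.

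Monocyte and interstitial macrophage genes, some from cells that depend on M-CSF, had 3 of 16 called lower and 0 higher for short-term against HDM. This stood beside 4.79% of all genes called, with a median log2 fold change of -0.29. Ly6c2, a surface protein of inflammatory monocytes, averaged 15.4 ± 3.89 CPM in the short-term and 29.1 ± 2.90 CPM in the HDM group and was called without any 1 library, with adjusted p of at most 0.0448. Ms4a7, a membrane protein of interstitial macrophages, averaged 14.7 ± 2.64 CPM in the short-term and 26.8 ± 5.97 CPM in the HDM group and likewise passed without any 1 library. Neither passed in a fit of only the short-term and HDM libraries, in which 0 of all genes were called. Apoe, a lipid carrier, had a log2 fold change of -0.61 (adjusted p = 0.034 by edgeR), and with short-term replicate 5 left out its adjusted p was 0.0929. Without HDM replicates 1 and 2, 1 of 16 was called, Ly6c2. The list summed to between 1210 and 1940 CPM in short-term lungs and between 1997 and 2740 CPM in HDM lungs, without overlap. Long-term lungs had 1833 to 2306 CPM, and 0 of 16 genes passed against HDM. Apoe was the largest part of these sums, at 765 ± 158 CPM in short-term and 1172 ± 223 CPM in HDM lungs. Of all single genes tested, 6.25% had no overlap between the short-term and HDM libraries. Without short-term replicate 3 the list's median log2 fold change for short-term against HDM was -0.12. The part of this list in the Csf1r and Csf2 receptor values was not tested.

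Of 14 tested neutrophil genes, 4 were called lower in short-term than in HDM lungs and 0 higher, beside 4.79% of all genes called. They were Mmp9 (log2 fold change -0.62), Mmp8 (-0.91), Retnlg (-0.98) and Lcn2 (-0.84), which encode 2 granule proteases, a secreted protein of neutrophils and an iron-binding protein that epithelium also makes. With short-term replicate 5 left out none of the 4 passed (adjusted p from 0.0579 to 0.11), and without HDM replicates 1 and 2 again 0 of 14 passed (adjusted p from 0.0531 to 0.132). Without these and short-term replicate 3 together, 2 of 14 passed. The list's summed level ran from 571.8 to 1535 CPM in the short-term, from 1139 to 1524 CPM in the long-term and from 1533 to 2167 CPM in the HDM group. Most of each sum was Lcn2, which averaged 926, 1136 and 1659 CPM in these groups. For short-term against HDM 9 of the 14 tested genes were below 0. Those above it were Ltf (0.05), Ngp (0.14), Camp (0.26), Prtn3 (0.44) and Mpo (1.66, edgeR adjusted p = 0.177). Camp, Prtn3 and Mpo were low, at means of 0.484, 0.425 and 0.696 CPM in the short-term group. Csf3, the growth factor of neutrophils, stayed near 0 throughout.

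By edgeR, dendritic cell and eosinophil lists had 0 of 12 and 0 of 6 called in the comparisons with all 15 libraries. For short-term against HDM, DESeq2 on the same libraries called 3 of the 12 (Irf4, Xcr1 and Sirpa) and 1 of the 6 (Ccr3) lower. There limma voom called 1 of the 12, Sirpa. Of all 19562 tested genes, DESeq2 called 2136, limma voom 2413 and edgeR 937 (4.79%) in this comparison. Without the 3 libraries that stood apart, 2 of the 12 dendritic genes were called lower there by edgeR, beside 2279 genes in all. For short-term against HDM the smallest p-values were those of Irf4 (log2 fold change -0.60, edgeR adjusted p = 0.0716) and Sirpa (-0.50, adjusted p = 0.0718) among dendritic genes and of the eotaxin receptor Ccr3 (-0.73, adjusted p = 0.0526) among eosinophil genes. Genes of type 2 lymphocytes and innate lymphoid cells, which make GM-CSF, had 0 of 9 called, led by Il7r at -0.44 (adjusted p = 0.22) and Gata3 at 0.27 (adjusted p = 0.477). Of 5 tested type 3 lymphocyte genes 1 was called, Ccr6 at -0.89 (adjusted p = 0.0346), which B cells also express and which did not pass without HDM replicate 2 (adjusted p = 0.0863) or without HDM replicates 1 and 2 (adjusted p = 0.129).

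Of 8 B-cell genes, 7 were called lower in short-term than in HDM lungs, beside 4.79% of all genes called, led by Fcrla (log2 fold change -1.12, edgeR adjusted p = 0.00578), Cd79b (-1.06, adjusted p = 0.00904), Ms4a1 (-0.94, adjusted p = 0.0109) and Fcmr (-1.03, adjusted p = 0.0109). Without HDM replicates 1 and 2, which had the highest summed levels of this list (448.4 and 495.4 CPM), 2 of 8 were called, Cd79b and Fcrla. Without short-term replicate 3, 8 of 8 were called, and without all 3 libraries 6 of 8. For long-term against HDM 1 of 8 was called lower, Fcrla (-0.93, adjusted p = 0.0382), beside 0.0971% of all genes called. That call was lost in 12 of 15 fits that each left out 1 library, and the count was 0 of 8 without HDM replicates 1 and 2 and 6 of 8 both without short-term replicate 3 and with DESeq2. The list's summed level ran from 142.4 to 285.9 CPM in the short-term, from 219.5 to 294.3 CPM in the long-term and from 356.6 to 495.4 CPM in the HDM group. No gene of the list was at 0 in any group, and its part in the Csf2 values was not tested. Among structural cells, 1 of 10 type 2 epithelial genes was called lower for short-term against HDM (Lpcat1, log2 fold change -0.55, edgeR adjusted p = 0.0176), as was 1 of 9 endothelial genes (Emcn, -0.57, adjusted p = 0.0176), and 0 of 10 fibroblast genes were called, beside 4.79% of all genes called. Emcn did not pass without HDM replicates 1 and 2 (adjusted p = 0.0688). With limma voom 6 of the 10 epithelial genes were called, beside 2413 of all 19562 genes. Without all 3 libraries that stood apart 6 were called, beside 2279 genes in all. Of 8 tested thymocyte genes 1 was called higher, Rag1, which missed the threshold without short-term replicate 3 (adjusted p = 0.096) and without HDM replicates 1 and 2 (adjusted p = 0.129).

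The genes whose levels most resembled each member were ranked by Pearson's r of log2 CPM over the 14 libraries other than short-term replicate 3, among 13727 protein-coding genes. The libraries are those of the comparisons above, so r in part restates the group differences and the place of HDM replicates 1 and 2. For Csf2 the 5 closest were Krtcap2 (r = 0.976), Morf4l1 (0.976), Max (0.972), Aimp2 (0.971) and Tmem123 (0.969). Over the 12 libraries left without HDM replicates 1 and 2 these were 0.919, 0.956, 0.886, 0.874 and 0.854, and over all 15 they were 0.962, 0.687, 0.912, 0.928 and 0.937. Tmem123 averaged 208 ± 18.5 CPM in the short-term, 209 ± 14.5 CPM in the long-term and 313 ± 74.2 CPM in the HDM group.

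Closest to the shared beta chain Csf2rb were Arid3a (r = 0.96), the phagosomal metal transporter Slc11a1 (0.956) and the lysosomal protease Ctsa (0.955), with r of 0.972, 0.978 and 0.969 over the 12 libraries. Csf1r was closest to C1qc (0.95), a complement chain made by macrophages, then to Tspan11 (0.935) and Arpc1b (0.933). Csf2rb2 was closest to Syvn1 (0.944), Ahcyl1 (0.939) and Anpep (0.932), and Csf2ra to Zmynd8 (0.955), Arntl (0.939) and Fcrl5 (0.931). Of these, Arntl had r = -0.0681 over all 15 libraries. Csf1 had Lilra6 (0.901), Tnfaip3 (0.887) and Gsdme (0.882), of which Tnfaip3 and Gsdme had -0.189 and 0.0343 over all 15. Il34 had Slc4a2 (0.978), Sema4f (0.972) and Skiv2l (0.969), with 0.832, 0.831 and 0.704 over the 12 libraries.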

How the data were processed

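The authors deposited 1 table of raw counts for 15 libraries, with a row per Ensembl gene. TruSeq stranded total RNA libraries were aligned with STAR 2.5.3a on GRCm38, per the submitters' processing notes. How reads were assigned to genes, with which strand setting and annotation, is not stated in the labels used, so overlapping genes may hold each other's reads. The 8 members and 16 gene lists were chosen with earlier results of these data known.

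Genes passing filterByExpr (19562) were tested in 1 fit of all 15 libraries with edgeR 4.0.16 (R 4.3.3), quasi-likelihood, robust, TMM scaling, two-sided, Benjamini-Hochberg, threshold 0.05; the step was tested on simulated data. SE is the absolute log2 fold change over the square root of F. CPM use TMM-scaled library sizes. Named genes are all members, up to 4 called genes of each list by smallest p or else the 2 with the smallest p, and the 5 (Csf2) or 3 (others) genes with the highest r. Names, lengths and sequences came from GENCODE M21 (55240 of 55421 rows matched). 1 gene is not reported here and was left out of its list. Replicate numbers follow deposit order and pair nothing. Alternatives were DESeq2 1.42.0, limma 3.58.1 voom with quality weights, RLE scaling, no filter, a filter at a mean of 1 CPM, a fit of only the libraries compared, each library left out, and HDM replicates 1 and 2 left out together. Leaving out these with short-term replicate 3, and r over 12 libraries, were chosen after seeing the data. Figures were drawn with matplotlib 3.10.9.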

Additional observations from a re-analysis of the deposited data

Results flagged for a closer look

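Il34 in short-term replicate 3 was at 4.36 CPM, far below the other 4 short-term libraries at 10.4 to 12.3 CPM. The gap was 0.755 of the group's range, above Dixon's critical value of 0.71 for 5 samples. Chance gives about 1 such value in 20 groups, and 1 was found in 24 groups checked (8 genes in 3 groups). The same library was the lowest of its group for the 4 receptor chains and Csf1.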

How the results depend on the processing

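For short-term against HDM the number of members called was 1, against 2 (Csf2 and Csf2rb2) with DESeq2, limma voom and RLE scaling, 0 in a fit of only the libraries compared, and 1 to 3 when each library was left out (3 without HDM replicate 3, adding Csf2ra and Csf2rb2, and 2 without short-term replicate 1). For long-term against HDM it was 0, against 1 with DESeq2, 2 with limma voom, 1 without HDM replicates 1 and 2 and short-term replicate 3 together, and 0 to 1 when each library was left out (1 without short-term replicate 3). For short-term against long-term it was 0 under all alternatives run. The cause of these shifts was not tested.

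Over all genes, 937 were called for short-term against HDM, against 2136 with DESeq2, 2413 with limma voom, 208 without a filter, 0 with only the libraries compared, 183 without HDM replicates 1 and 2, 2279 without all 3 libraries, and 160 to 1294 with each library left out. For long-term against HDM 19 were called, against 607, 494, 2 and 36 in the first 4 of these, 492 without all 3 libraries, and 0 to 433 with each library left out.

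Of the members' fold changes, 24 of the values under alternatives changed sign. For short-term against long-term, limma voom gave 0.041 for Csf1, 0.097 for Csf2ra, 0.0015 for Csf2rb, 0.098 for Csf2rb2 and 0.029 for Il34, and the fit without all 3 libraries gave 0.042 for Csf1, 0.028 for Csf2ra, 0.052 for Csf2rb2 and 0.015 for Il34. With each library left out these ran from -0.22 to 0.057 for Csf1, from -0.23 to 0.045 for Csf2ra, from -0.21 to 0.067 for Csf2rb2 and from -0.24 to 0.0295 for Il34. Csf1r for long-term against HDM ran from -0.077 to 0.088, and Il34 for short-term against HDM from -0.067 to 0.26. Without HDM replicates 1 and 2, Il34 was -0.24 for short-term and -0.087 for long-term against HDM, and without all 3 libraries -0.079 and -0.093.

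No paired analysis was possible because the labels give no replicate numbers. Upper-quartile scaling was not run. The depth limits Csf3, for which at most 3 counts were found in a library.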
